A study of Mus musculus with 8 samples.

Results

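The genes described here are 42 genes of DNA replication: the subunits of the replicative helicase, the factors that license and fire origins, the sliding clamp and its loader, the single-strand binding complex, the polymerases and primase, the enzymes that join Okazaki fragments, the enzymes that supply deoxynucleotides, a chromatin assembly factor, and the regulators of S phase entry. They were taken as every probe whose gene name on the array was the symbol of one of these genes or its older alias. All 42 were found, by 62 probes, among 21638 genes measured. The samples were 8 one-colour Agilent arrays of total RNA from C57BL/6 mice. The tumor group was 4 colon adenomas from mice of genotype Tcf4Het ApcHet, and the control group was 4 samples of normal colon from mice of genotype TCF4WT ApcHet. Both groups therefore carried a single mutant allele of Apc, called ApcMin in the protocol, and the tumor group also lacked a copy of Tcf4, a transcription factor of the Wnt pathway. No Tcf4 wild-type tumor and no Tcf4 heterozygous normal colon was among the samples, so the effects of tissue and of genotype cannot be told apart. The protocol places the tissue in the distal 2.5 cm of the colon and describes the mice as littermates. The titles say adult and the labels give no age in weeks, and no sorting of cells is described.

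Replication begins when the origin recognition complex, Cdc6 and Cdt1 load the Mcm2-7 ring onto DNA, a step called licensing. The kinase Cdc7 with Dbf4 then helps the GINS complex and Cdc45 to join the ring, which becomes the moving helicase. Polymerase alpha with primase starts each strand, replication factor C loads the Pcna clamp, and polymerases delta and epsilon extend the strands. Many of these genes are classical targets of E2F factors and are transcribed as cells pass from G1 into S phase. In the colon such cells lie in the lower crypt, and Wnt signalling through Tcf4 maintains them.

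All values below are log2 levels from the authors' deposited table. A difference is tumor mean minus normal mean, and called means an adjusted p under 0.05 in limma over all genes. Differences are given ± standard error, and groups as mean ± SD with n = 4. The number after a group's name is the number in the sample title. For 4 of the 8 columns of this table the scanner file could be traced by its values. Of these 4, only 1, tumor 1, lay under the same sample title as its column. The files matching the normal 1 and normal 2 columns were titled normal 2 and normal 3. The file matching the tumor 2 column was titled normal 4, in the other group. The other 4 columns matched no scanner file. Groups below follow the column titles, and values taken by the scanner files' own titles are given at the end. Over all genes, normal 3 stood nearer to the tumors (Pearson's r across genes, which are not independent replicates, 0.947 to 0.966) than to normal 1, normal 2 and normal 4 (0.941, 0.872 and 0.877), and calls are given below with and without it. All 42 genes were above the detection limit of 5.59 on all 8 arrays. No member probe was flagged as saturated in the scanner files, which could be matched to only 4 of the 8 columns. Over all genes the median difference was 0.15, and it fell to 0.048 when arrays were centred on their mean.

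Replication genes were either higher in the tumors or not called: 13 of 42 rose, 0 fell and 29 were not called. Over all genes 7.0% were called higher and 7.54% lower. The genes that rose were Chaf1b, Mcm3, Pole, Mcm7, Gins1, Pole2, Mcm5, Mcm4, Ccne1, Rfc2, Pcna, Rrm2 and Mcm2, in order of adjusted p. The median difference of the members was 0.40, against 0.15 for all genes, and 90.5% of them had a positive difference, against 57.9% of all genes. When single probes were fitted, 15 of the 56 kept member probes were called higher and none lower, against 5.62% of all probes higher. At an unadjusted p under 0.05, 21 members were higher and none was lower, against 16.2% of all genes higher and 16.2% lower. The rises were small: 2 of the 13, Ccne1 and Gins1, reached 2-fold, while 57.8% of the 1515 genes called higher did. For 17 members all 4 tumors lay above all 4 normal samples, an order seen in 11.9% of all genes. In bulk tissue a larger share of replicating cells and more RNA per cell cannot be told apart.

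The number of calls changed with the pairing of samples and with the samples used. Tumor and normal samples that share a number deviated together from their group means, as did some with different numbers, and with the replicate number as a block 2 of 42 members were called, Mcm3 and Rrm2, against 3.60% of all genes. Each number holds a tumor and a normal sample, so the block cannot change the size of a difference. In all 4 same-number pairs 32 of 42 members were higher in the tumor, against 23.6% of all genes. Leaving out single samples gave from 0 to 21 members called: 0 without normal 1, normal 2, normal 4, tumor 2 or tumor 3, 2 without tumor 4, 4 without tumor 1, and 21 without normal 3. The share of all genes called higher ranged from 0.0739% without tumor 3 to 31.7% without normal 3. It was 1.81% without tumor 1, and 3.92% without tumor 4 against 4.76% of members. Without normal 1, normal 2, normal 4 and tumor 2 it was 1.48%, 1.70%, 0.499% and 0.915%. With arrays weighted by their spread, 25 members were called higher, against 39.7% of all genes. The median difference of the members stayed between 0.38 and 0.49 in these fits. Centring the arrays left 7 members called, and the median difference of the 42 genes fell from 0.40 to 0.29. Calls over all genes moved from 1515 higher and 1632 lower to 1205 higher and 2016 lower.

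**Figure D1:**
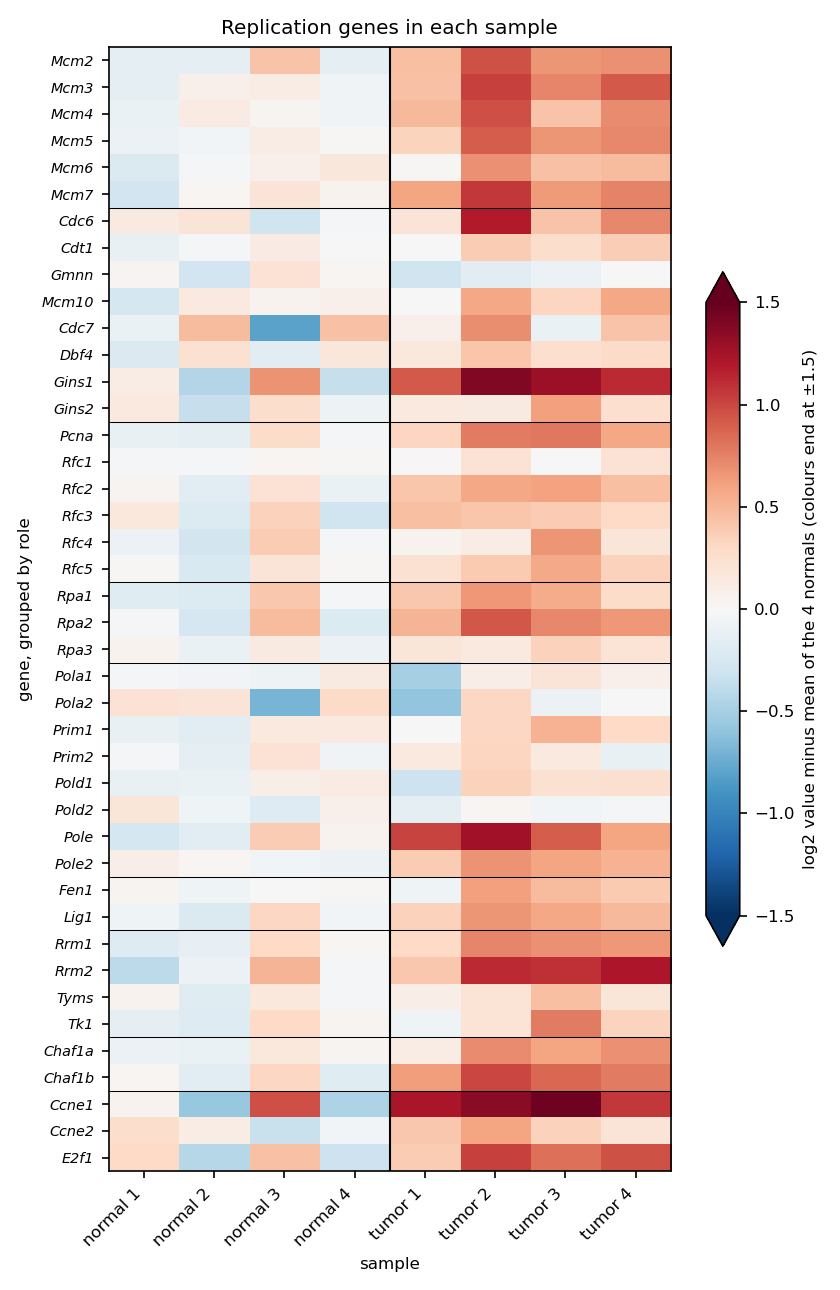
Each row is 1 of the 42 genes, ordered by role, and each column 1 of the 8 samples; colour gives the log2 level minus the gene's mean over the 4 normal samples. Most rows are higher in the tumors, tumor 2 is the highest tumor for 27 genes and tumor 1 the lowest for 32, and normal 3 is the highest normal sample for 29.

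The replicative helicase was the role with the most calls. Of its 6 subunits 5 rose, Mcm2, Mcm3, Mcm4, Mcm5 and Mcm7, and the median difference was 0.67. Mcm3 (probe at chr1:20788189-20788248, build mm8) measured 14.25, 14.45, 14.48 and 14.32 in normal 1 to 4 and 14.82, 15.40, 15.11 and 15.30 in tumor 1 to 4. The groups did not overlap, and the lowest tumor lay 0.34 above the highest normal sample. Its difference was 0.78 ± 0.16 (adjusted p = 0.0241, and 0.0475 with the replicate block), and both of its kept probes were called. Mcm7 (chr5:138394485-138394544) read 13.59, 13.90, 14.07 and 13.93 in the normal samples and 14.46, 14.94, 14.51 and 14.62 in the tumors. Again every tumor lay above every normal sample, by at least 0.39. Mcm7 differed by 0.76 ± 0.17 (adjusted p = 0.0282, and 0.0525 with the block).

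Mcm5 (chr8:78023523-78023583) measured 13.02, 13.07, 13.23 and 13.12 in normal colon and 13.45, 14.02, 13.77 and 13.83 in the tumors. The normal samples spread little (13.11 ± 0.088), and the difference was 0.66 ± 0.15 (adjusted p = 0.0320, and 0.0597 with the block). Mcm4 (chr16:15537857-15537916) measured 13.91, 14.13, 14.05 and 13.95 against 14.50, 14.97, 14.44 and 14.72. Its groups were also apart, and it differed by 0.65 ± 0.16 (adjusted p = 0.0344, and 0.0569 with the block). Mcm2 (chr6:88849266-88849325) measured 12.90, 12.91, 13.48 and 12.92 against 13.51, 14.01, 13.72 and 13.74. Here normal 3 stood above the other normal samples and only 0.024 below tumor 1. The difference was 0.69 ± 0.19 (adjusted p = 0.0474, and 0.0780 with the block). Mcm6, the remaining subunit of the ring, was higher in the tumor of all 4 pairs but was not called (0.41 ± 0.18, adjusted p = 0.158). Its tumor 1, at 15.09, lay below normal 3 and normal 4.

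Promoter sequence is shown for the 4 called genes whose RefSeq promoter window held the letters of an E2F site, since 3 of them are helicase subunits and E2F control is the textbook link between these genes. The windows run from 250 bases before to 50 bases after the annotated start (GRCm38.p6, 5′ to 3′ on the gene's strand), and capitals mark the letters TTTGGCGC, TTTCCCGC, TTTGCCGC or TTTCGCGC on either strand.
Mcm3 (chr1:20820263-20820562, minus strand): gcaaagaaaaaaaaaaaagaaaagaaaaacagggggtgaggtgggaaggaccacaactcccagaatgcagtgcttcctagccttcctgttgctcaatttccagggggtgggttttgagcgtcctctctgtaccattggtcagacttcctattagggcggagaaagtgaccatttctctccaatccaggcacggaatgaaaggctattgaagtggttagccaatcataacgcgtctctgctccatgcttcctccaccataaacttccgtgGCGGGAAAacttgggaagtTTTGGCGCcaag
Mcm7 (chr5:138171834-138172133, minus strand): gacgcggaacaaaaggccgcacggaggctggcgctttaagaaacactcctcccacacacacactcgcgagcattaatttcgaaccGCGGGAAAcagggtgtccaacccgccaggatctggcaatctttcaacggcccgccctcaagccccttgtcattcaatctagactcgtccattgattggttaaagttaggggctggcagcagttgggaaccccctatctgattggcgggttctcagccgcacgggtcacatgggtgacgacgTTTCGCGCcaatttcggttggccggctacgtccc
Pole2 (chr12:69228141-69228440, minus strand): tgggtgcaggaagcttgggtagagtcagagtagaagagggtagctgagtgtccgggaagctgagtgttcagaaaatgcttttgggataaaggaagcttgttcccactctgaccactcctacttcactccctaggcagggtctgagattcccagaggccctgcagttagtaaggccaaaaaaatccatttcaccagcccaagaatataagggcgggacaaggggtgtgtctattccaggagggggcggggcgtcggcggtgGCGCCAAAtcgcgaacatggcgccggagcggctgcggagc
Mcm5 (chr8:75109259-75109558, plus strand): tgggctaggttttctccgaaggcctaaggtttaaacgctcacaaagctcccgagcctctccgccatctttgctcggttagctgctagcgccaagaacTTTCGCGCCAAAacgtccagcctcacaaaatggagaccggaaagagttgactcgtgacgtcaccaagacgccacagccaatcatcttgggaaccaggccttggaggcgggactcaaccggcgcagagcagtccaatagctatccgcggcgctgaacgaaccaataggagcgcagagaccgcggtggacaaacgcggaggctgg
In the Mcm3 window the matches began at bases 270 and 289, counted from 1 at the 5′ end, and in Mcm7 at bases 86 and 267. Pole2 had a single match at base 261. In Mcm5 the matches at bases 98 and 102 overlapped each other. By symbol 34 of the 42 members had at least 1 window, 40 windows in all; Mcm4, Gins1, Gins2, Gmnn, Rfc2, Prim2, Pole and Ccne2 had none in the table. These letters stood in 11 of the 40 windows (27.5%), against 2.26% of all 32851 promoter windows. Among members called, 4 of 10 windows held them, and among members not called, 7 of 30 (Cdc6, Cdt1, Lig1, Mcm6, Pola1, Pold1 and Rfc3). Of the 9 called members with a window, 5 had no such letters there. A match of letters is a description and does not show binding.

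Of the 8 factors that license and fire origins, 1 was called. Gins1 (chr2:150622573-150622632), a subunit of the GINS complex of the moving helicase, measured 10.86, 10.31, 11.41 and 10.40 in normal 1 to 4 and 11.66, 12.14, 12.03 and 11.87 in tumor 1 to 4. The tumors lay close together (11.93 ± 0.21) and the normal samples spread widely (10.75 ± 0.51), with normal 3 the highest. The difference was 1.18 ± 0.26, 2.26-fold (adjusted p = 0.0295, and 0.0555 with the block), and both kept probes were called. Gins2, another GINS subunit, differed by 0.28 ± 0.19 (adjusted p = 0.271). The loading factors Cdc6 (0.63 ± 0.24, adjusted p = 0.114) and Cdt1 (0.25 ± 0.14, adjusted p = 0.210) were higher in the tumor of all 4 pairs without being called. Mcm10, which acts when the helicase is activated, differed by 0.36 ± 0.18 (adjusted p = 0.191), and Dbf4, the activating subunit of the Cdc7 kinase, by 0.28 ± 0.15 (adjusted p = 0.211).

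Cdc7, the kinase itself, measured 9.51, 10.08, 8.80 and 10.05 in the normal samples and 9.68, 10.31, 9.51 and 10.04 in the tumors on its brighter probe. The groups overlapped throughout, and normal 3 was the lowest of all. Its difference was 0.28 ± 0.32 (adjusted p = 0.524), and the dimmer kept probe gave the opposite sign, -0.17 ± 0.21. Gmnn, which encodes geminin, the inhibitor of Cdt1, had the lowest difference of all members. It measured 15.10, 14.77, 15.27 and 15.08 in normal colon and 14.76, 14.88, 14.97 and 15.05 in the tumors. The groups overlapped, the difference was -0.14 ± 0.15 (adjusted p = 0.478), and the tumor was the higher of the pair in 1 of 4 pairs.

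**Figure D2:**
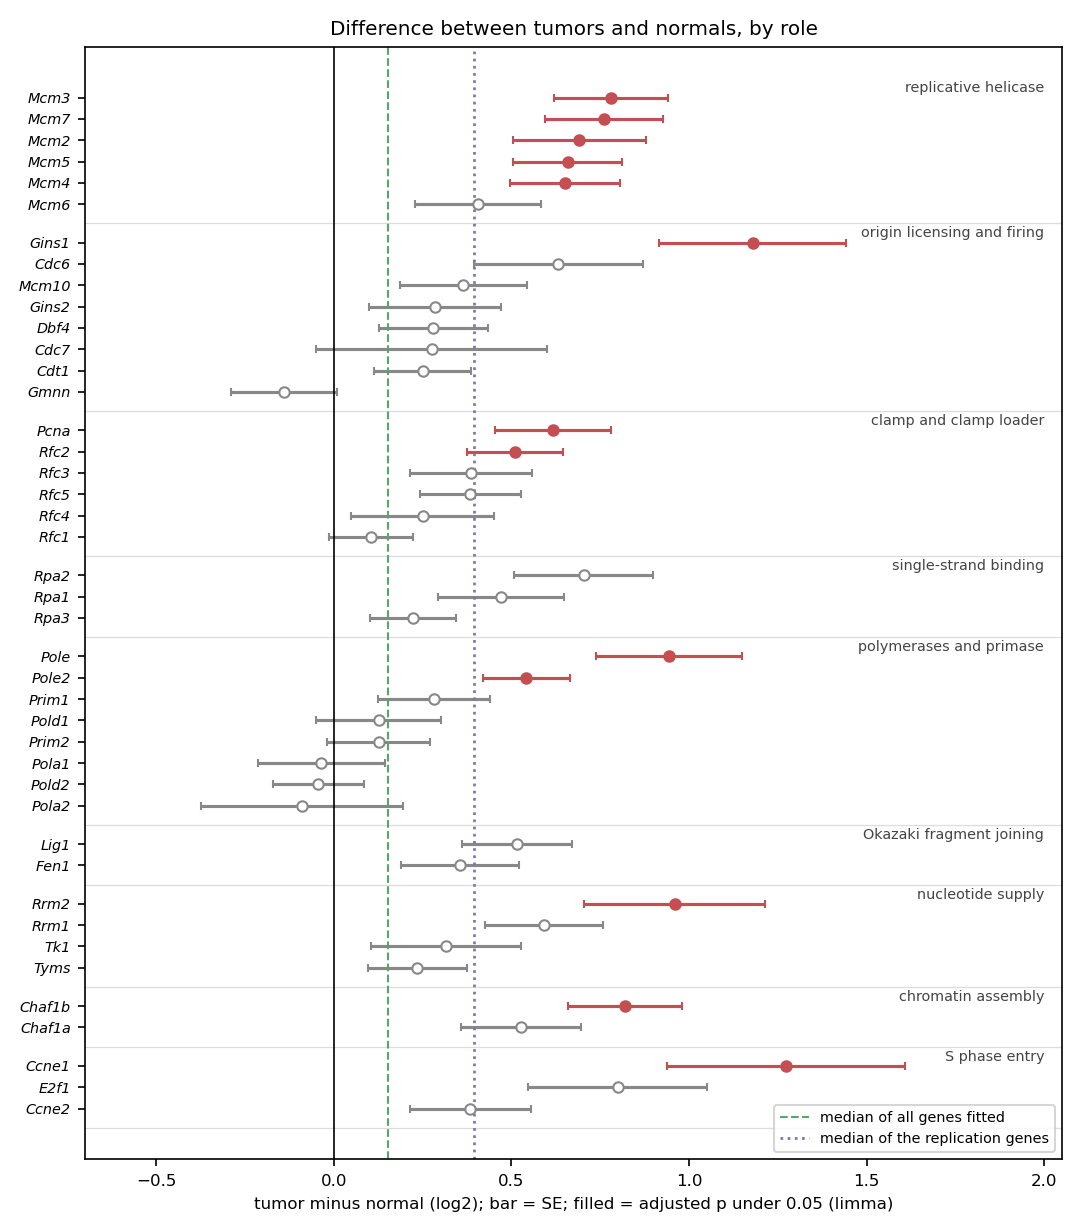
Points are the tumor minus normal difference of each member on the log2 scale, grouped by role, with bars for its standard error (4 tumors, 4 normal samples) filled points for adjusted p under 0.05, and vertical lines at the medians of all genes (dashed) and of the members (dotted). Helicase subunits sit between 0.41 and 0.78, while the polymerases and primase run from -0.090 to 0.94.

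In the clamp and its loader 2 of 6 genes were called. Pcna (chr2:131941125-131941262), the clamp that holds polymerases on DNA, measured 15.09, 15.07, 15.47 and 15.17 in the normal samples and 15.53, 15.98, 15.99 and 15.78 in the tumors. Tumor 1 was the lowest tumor and lay 0.053 above normal 3, the highest normal sample. The difference was 0.62 ± 0.16 (adjusted p = 0.0450, and 0.0613 with the block). Rfc2 (chr5:134882889-134882948), a small subunit of the loader, measured 14.50, 14.29, 14.68 and 14.36 against 14.87, 15.03, 15.06 and 14.91. Its difference was 0.51 ± 0.13 (adjusted p = 0.0445, and 0.0769 with the block). The second Rfc2 probe had a difference of the same sign, 0.59 ± 0.19, and was not called in the fit of single probes (adjusted p = 0.0761). The other loader subunits were not called: Rfc5 differed by 0.38 ± 0.14, Rfc3 by 0.39 ± 0.17, Rfc4 by 0.25 ± 0.20 and the large subunit Rfc1 by 0.11 ± 0.12, with adjusted p from 0.111 to 0.504.

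The single-strand binding complex, which coats unwound DNA, had no called subunit. Rpa2 lay just outside the threshold, with a difference of 0.70 ± 0.20 (adjusted p = 0.0511) and all tumors above all normal samples. Rpa1 differed by 0.47 ± 0.18 (adjusted p = 0.114) and Rpa3 by 0.22 ± 0.12 (adjusted p = 0.211). Rpa3 was also higher in every tumor than in every normal sample, by a margin of 0.014.

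Among the polymerases and primase, the epsilon subunits Pole and Pole2 rose, and the median over the 8 genes was 0.13. Pole (chr5:110577648-110577707), the catalytic subunit of the leading-strand polymerase, measured 11.01, 11.11, 11.67 and 11.33 in the normal samples and 12.30, 12.54, 12.19 and 11.87 in the tumors. The groups were 0.20 apart, and the differences in pairs 1 and 2 were 1.28 and 1.43 against 0.53 in pairs 3 and 4. Its difference was 0.94 ± 0.21, 1.92-fold (adjusted p = 0.0280, and 0.0638 with the block). Pole2 (chr12:70125083-70126482), its accessory subunit, measured 10.81, 10.74, 10.67 and 10.62 against 11.09, 11.38, 11.30 and 11.24. Both groups were tight, and the difference was 0.54 ± 0.12 (adjusted p = 0.0302, and 0.0699 with the block).

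The alpha and delta subunits were not called, and 3 of these 4 had a negative difference. Pola2, the accessory subunit of polymerase alpha, measured 9.55, 9.52, 8.62 and 9.61 in normal colon and 8.74, 9.63, 9.24 and 9.33 in the tumors. The groups overlapped, with normal 3 and tumor 1 the lowest samples. Its difference was -0.090 ± 0.28 (adjusted p = 0.819), and its other kept probe, near the detection limit, gave 0.052 ± 0.38. Pold2, an accessory subunit of polymerase delta, measured 11.48, 11.24, 11.11 and 11.38 against 11.17, 11.33, 11.27 and 11.27. The tumors lay inside the normal range, and the difference was -0.044 ± 0.13 (adjusted p = 0.808). The catalytic subunits Pola1 (-0.035 ± 0.18, adjusted p = 0.890) and Pold1 (0.13 ± 0.18, adjusted p = 0.591) were close to 0, and both were lowest in tumor 1. The primase subunits Prim1 (0.28 ± 0.16, adjusted p = 0.217) and Prim2 (0.13 ± 0.15, adjusted p = 0.520) were not called. The difference between the epsilon and the alpha or delta subunits was not tested.

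The flap nuclease Fen1 and the ligase Lig1, which finish Okazaki fragments, were not called. Lig1 differed by 0.52 ± 0.15 (adjusted p = 0.0631) with the groups apart, and Fen1 by 0.36 ± 0.17 (adjusted p = 0.180) with tumor 1 at the level of the normal samples. Of the 4 genes that supply deoxynucleotides, Rrm2 (chr12:25302833-25302889), the small subunit of ribonucleotide reductase, rose. It measured 11.15, 11.46, 12.06 and 11.53 in the normal samples and 11.96, 12.67, 12.65 and 12.76 in the tumors. Rrm2 was the only called member whose groups overlapped, because tumor 1 lay below normal 3. Its difference was 0.96 ± 0.26 (adjusted p = 0.0458 both without and with the block), and within pairs the tumor was higher by 0.59 to 1.23. Rrm1, the large subunit, lay just outside the threshold (0.59 ± 0.17, adjusted p = 0.0524). Thymidylate synthase, Tyms, differed by 0.23 ± 0.14 (adjusted p = 0.235) and thymidine kinase, Tk1, by 0.32 ± 0.21 (adjusted p = 0.279).

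Chaf1b (chr16:93794564-93794624), a subunit of the factor that places histones on new DNA, had the lowest adjusted p of the members. It measured 12.16, 11.97, 12.44 and 11.95 in normal 1 to 4 and 12.76, 13.13, 12.99 and 12.91 in tumor 1 to 4. The lowest tumor lay 0.32 above the highest normal sample. The difference was 0.82 ± 0.16 (adjusted p = 0.0220, and 0.0520 with the block). Its partner Chaf1a differed by 0.53 ± 0.17 and was not called (adjusted p = 0.0767).

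Among the regulators of S phase entry, Ccne1 (chr7:37806678-37806701), which encodes the cyclin that activates Cdk2 before S phase, had the largest difference of the 42 genes. It measured 12.12, 11.50, 13.03 and 11.60 in the normal samples and 13.29, 13.42, 13.52 and 13.12 in the tumors. The tumors were close together (13.34 ± 0.17), while the normal samples spread widely (12.07 ± 0.70) and normal 3 came within 0.090 of the lowest tumor. The difference was 1.27 ± 0.34, 2.42-fold (adjusted p = 0.0445, and 0.0537 with the block). A second probe of the gene with the same annotated position was called too, with a smaller difference of 0.78 ± 0.19. Ccne2, the related cyclin, differed by 0.38 ± 0.17 (adjusted p = 0.163). E2f1, the transcription factor released at the start of S phase, differed by 0.80 ± 0.25 and was not called (adjusted p = 0.0735).

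**Figure D3:**
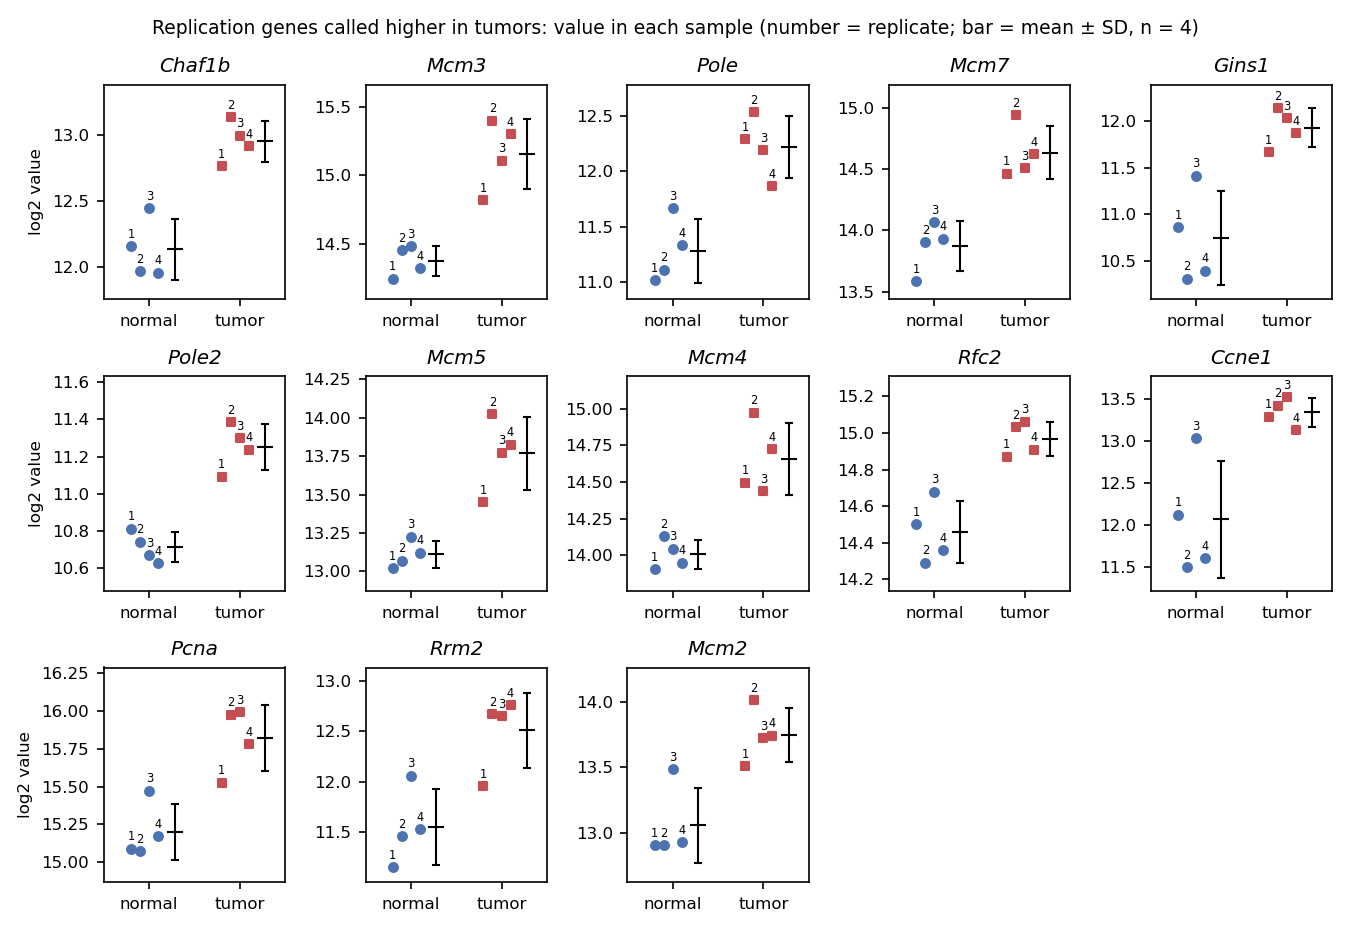
Each panel is 1 of the 13 members called higher, with log2 levels of the 4 normal samples and 4 tumors as points numbered by replicate, and group mean ± SD beside them; panels have their own vertical range that does not start at 0. Each tumor lies above the normal sample of the same number in all 13 panels, and Rrm2 is the panel in which a tumor lies below a normal sample.

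Among single samples, normal 3 and tumor 1 narrowed the gap between groups. The mean level of the 42 genes was 12.32, 12.26, 12.50 and 12.33 in normal 1 to 4 and 12.59, 12.97, 12.87 and 12.82 in tumor 1 to 4. Normal 3 was therefore the highest normal sample and tumor 1 the lowest tumor. Within same-number pairs the tumor was higher for 35, 42, 39 and 36 of the 42 genes, with median differences of 0.22, 0.66, 0.38 and 0.44. All genes had medians of 0.12, 0.20, -0.052 and 0.16 in the same pairs. Pairs 1 and 2 were each hybridised within a single slide, by the traced scanner files, so these values are also within-slide values. The slides of the other pairs are not known.

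Markers of other cells differed between the groups too. Of the absorptive colonocyte markers 7 of 10 fell, with mean levels of 16.69 to 17.02 in normal colon and 14.10 to 15.63 in the tumors. Of the macrophage markers 7 of 9 rose (11.49 to 12.19 against 13.09 to 13.29), and of the neutrophil markers 5 of 7 (6.47 to 10.01 against 10.76 to 12.05). T and NK cell markers rose for 3 of 7 (8.26 to 9.34 against 9.63 to 10.13), and crypt stem and progenitor markers for 4 of 9 (11.91 to 12.38 against 12.62 to 12.82). Fibroblast and endothelial lists had 1 gene each that rose, goblet, pan-epithelial and small intestinal lists 1 each that fell, and smooth muscle and B cell lists no call. With the replicate block the called counts were 6 for colonocyte, 6 for macrophage, 5 for neutrophil, 3 for T and NK cell and 3 for crypt markers, and the goblet and pan-epithelial lists had none. Among the normal samples, normal 3 had the highest neutrophil and crypt levels and the highest small intestinal level, at 11.85. By the filter, every fitted marker was at or above the detection limit on at least 4 arrays. The neutrophil marker Cxcr2, counted among those that rose, reached the limit in 4 tumors and 1 normal sample. Csf3r, also counted there, reached it in 4 tumors and 3 normal samples, and Elane, not called, in 4 and 2. Olfm4, Ngp and Ncr1 were too dim to fit. The part of these shifts in the replication genes was not tested.

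Other genes of replication, such as origin recognition subunits, fork factors and E2F and Rb family members, were read from a list of 68, of which 67 could be fitted. Of these, 9 rose and 2 fell, against 7.0% of all genes called higher and 7.54% lower. The median difference was 0.18, against 0.15 for all genes. With the replicate block 1 was called higher, against 3.60% of all genes. The largest rises were Rnaseh2c, a subunit of the ribonuclease that removes ribonucleotides from DNA (0.76, adjusted p = 0.0242), Orc6, of the origin recognition complex (0.76, adjusted p = 0.0322), and Dctpp1, which clears modified dCTP (0.73, adjusted p = 0.0487). Rnaseh2c was called with the block (adjusted p = 0.0471), and Orc6 (0.0610) and Dctpp1 (0.0665) were not. The genes that fell were Rb1, the retinoblastoma repressor of E2F (-0.65, adjusted p = 0.0235, and 0.0565 with the block), and Tfdp2, a dimer partner of E2F (-0.59, adjusted p = 0.0467, and 0.0849 with the block). Centring the arrays left 4 higher and 2 lower in this list, against 5.57% of all genes higher and 2016 of 21638 lower.

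The scanner files' own values, grouped by the files' own titles, were also fitted, with 2 ways of processing them. These fits change the values, their normalisation and the titles at once, and 4 columns of the table matched no scanner file. In both, 0 of 42 members were called in either direction, and no member was higher at an unadjusted p under 0.05 in limma. Over all genes 0 were called in those fits as well, with 433 and 505 at an unadjusted p under 0.05. The median difference of the members was then 0.098 and 0.080, against 0.071 and 0.0068 for all genes. In the 4 traced columns with slide as a block the median was 0.46, with no gene called over the whole table and 7 of 42 members (16.7%) higher at an unadjusted p under 0.05, against 21.8% of all genes.

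**Figure D4:**
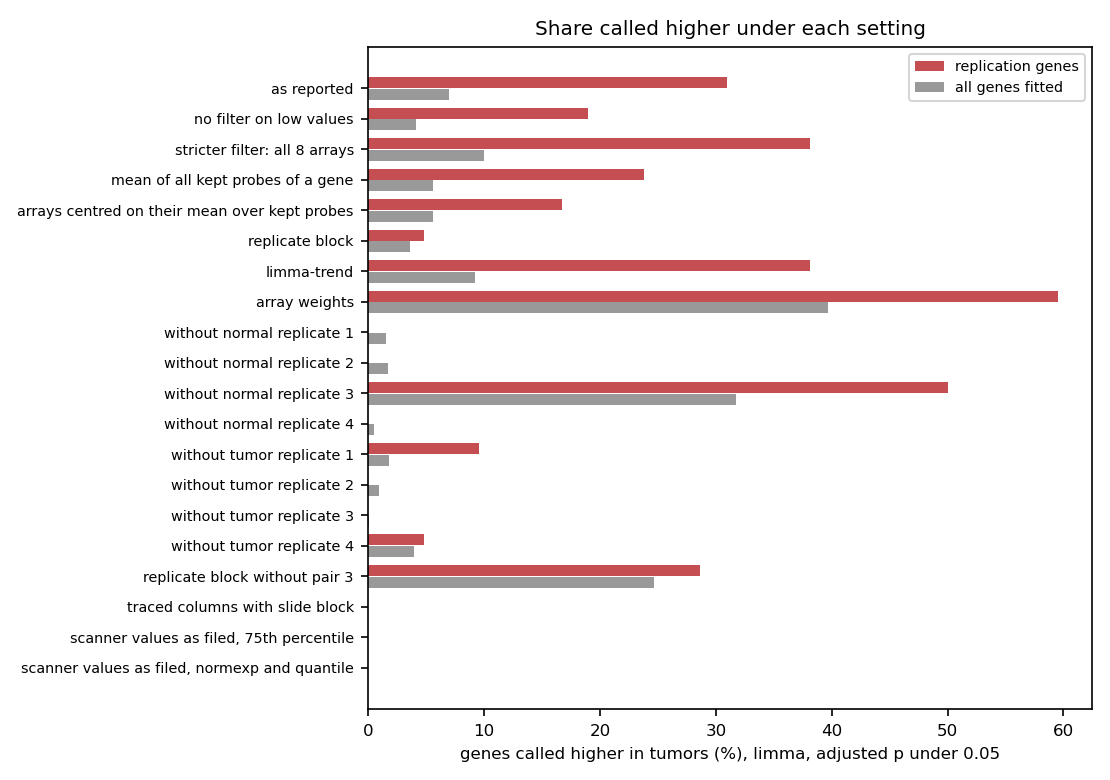
For each way of processing or subset of samples, bars from 0 give the percentage of the 42 replication genes (red) and of all genes fitted (grey) called higher in the tumors by limma. As reported these are 31.0% and 7.0%, and without normal 3 they are 50.0% and 31.7%. Several subsets and the fits of the scanner files' own values give 0 for the replication genes.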

How the data were processed

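Total RNA was labelled with Cy3 and hybridised to 8 arrays, 1 colour each. The authors deposited a table of log2 values, per the file headers of the series matrix. The median of its column medians is 8.51, and its range is 3.04 to 19.84. The deposited scanner files hold intensity values from Agilent Feature Extraction, version 9.5.1.1 per the file headers and 10.1.1.1 per the submitters' processing notes. The sources used here do not say how the table was normalised. Probe positions are those of the array design.

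A probe was kept at or above 5.59, a limit set so that 95% of the probes flagged as dim by the scanner software fall under it (median over the traced columns), on at least 4 arrays, and each gene was read from its brightest kept probe. Of 62 member probes, 56 were kept and 6 left out as dim; of 13 members with several kept probes, 11 had the same sign on all and 12 the same call. An alias matched 1 probe. Differences were tested with limma 3.58.1, run under R 4.3.3 (functions lmFit and eBayes, all 8 arrays, no covariate, 2-sided, Benjamini-Hochberg over 21638 genes). The script was first tested on simulated independent samples with shifts larger than any member difference. That trial does not cover differences of the size seen here. The number of arrays limits the precision, and the labels do not tie each sample to an animal, so p-values measure the spread between these samples. The paired check rests on the numbers in the titles; the labels do not say what a number shares. The correlations of same-number deviations were 0.24, 0.36, 0.53 and 0.36. Some samples with different numbers correlated as much (tumor 4 with normal 2, 0.38; tumor 2 with normal 4, 0.35; tumor 1 with normal 3, 0.28). All 4 same-number values were over 0.1, and the fit with the replicate number as a block stands beside each call it changed.

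Members and lists were chosen with earlier results of these data known. Values in every sample are given for members with adjusted p under 0.05, for those whose probes differ in call or sign, and for the 3 lowest differences. From each other list of replication genes, up to 3 called genes in each direction are named. Further subunits of GINS and of polymerases delta and epsilon are named beside the members. Alternatives covered the filter, the probe rule, centring, the replicate block, limma-trend, array weights, each sample left out and the scanner values; the block without pair 3 and the traced columns with slide as a block were added after seeing the data. Promoter windows are from RefSeq, and no test was run on motifs.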

Additional observations from a re-analysis of the deposited data

Results flagged for a closer look

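Across the 42 genes, 84 groups of 4 samples were checked for a sample far from the rest, as the gap to its nearest neighbour divided by the range of the group, and 5 exceeded the critical value; chance alone gives about 1 in 20. Mcm2 in normal 3 was at 13.48 with the other normal samples from 12.90 to 12.92 (ratio 0.965). Pola2 in normal 3 was at 8.62 with the others from 9.52 to 9.61 (ratio 0.908). Pola1 in tumor 1 was at 11.16 with the others from 11.75 to 11.85 (ratio 0.844). Pold1 in tumor 1 was at 12.37 with the others from 12.91 to 13.02 (ratio 0.831). Rrm2 in tumor 1 was at 11.96 with the others from 12.65 to 12.76 (ratio 0.862). All 5 concern normal 3 or tumor 1.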

How the results depend on the processing

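No member was called lower in any fit, while the count of 13 called higher moved with the processing. With the share of all genes called higher beside it, it was 16 with the stricter filter of all 8 arrays (9.95%) and with limma-trend (9.18%), 12 with the replicate block without pair 3 (24.7%), and 10 with the mean of all kept probes of a gene (5.62%). It was 8 with no filter on low values (4.08%), 7 with arrays centred (5.57%), 2 with the replicate block (3.60%) and 25 with array weights (39.7%). Members called were 28.6% without pair 3, close to that background. The count was 0 in the traced columns with slide as a block and 0 in both fits of the scanner files' own values. Leaving out a sample gave from 0 to 21, with 0.0739% to 31.7% of all genes called higher. Over all genes the count called was 3147 as reported, 2368 with no filter, 1869 with the replicate block, 14211 with array weights, 8269 with the block without pair 3, and from 21 to 11136 with a sample left out; the cause was not tested. Over the alternatives on the value table, the highest adjusted p of a called member was 0.303, for Pole2, and the lowest 0.000879, for Ccne1, and no called member changed sign there. The median difference moved to 0.098 and 0.080 with the scanner values scaled to their 75th percentile and with normexp and quantile normalisation. Under these settings, in that order, the sign turned for Gins2 (-0.086 and -0.087), Rfc1 (-0.063 and -0.044), Rfc3 (-0.21 and -0.18), Rpa1 (-0.063 and -0.022), Rpa3 (-0.095 and -0.056), Prim2 (-0.18 and -0.14), Pole2 (-0.11 and -0.12) and Tyms (-0.24 and -0.23), for Pola2 in the first (0.11) and for Ccne2 in the second (-0.17). With array weights Cdc7 turned to -0.17. With a sample left out, Pola1 ranged from -0.11 to 0.12, Pola2 from -0.32 to 0.075 and Pold2 from -0.11 to 0.016. All 42 genes were above the detection limit of 5.59 on every array, while the limits of single traced columns ran from 4.50 to 7.70. The effect of signal on these values was not tested.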

Other observations

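The genes that act after S phase, in mitosis, gave no call; their difference from the replication genes was not tested. Of 24 mitosis genes, such as those of spindle assembly and the anaphase-promoting complex, 0 were called in limma. Over all genes 7.0% were called higher and 7.54% lower. At an unadjusted p under 0.05 in limma, 3 mitosis genes were higher and 0 lower, against 16.2% of all genes in each direction. The median difference of the mitosis genes was 0.21, with 17 positive. Their lowest adjusted p was that of Ube2c, a ubiquitin-conjugating enzyme of the anaphase-promoting complex (0.51, adjusted p = 0.0738). Limma-trend called 1 of the mitosis genes higher, against 9.18% of all genes. Array weights called 2 higher and 5 lower, against 39.7% of all genes higher and 5610 of 21638 lower. The fit without normal 3 called 2 higher and 1 lower, against 31.7% of all genes higher and 4277 of 21638 lower. With the replicate block without pair 3, 1 was higher and 2 lower, against 24.7% of all genes higher and 2928 of 21638 lower. Their mean level was 11.79, 12.51, 11.99 and 12.56 in normal 1 to 4 and 11.86, 12.52, 12.40 and 12.51 in tumor 1 to 4, so that normal 1, normal 3 and tumor 1 were low and the other 5 samples were alike. Smooth muscle markers ranged from 13.60 in normal 3 to 15.75 in normal 2.

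The promoter windows of the lists held different letters. The sequence TTTGAA of the cell cycle homology region, in either strand, stood in 14 of the 20 windows of mitosis genes, in 6 of the 40 windows of members and in 17.9% of all windows. CCAAT stood in 16 of 20, 19 of 40 and 37.4%. The E2F letters stood in 1 of the 20 mitosis windows, in 11 of the 40 of members and in 23 of the 69 windows of the other replication genes.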
